A study of Mus musculus with 7 samples.

Results

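Cultured primary mouse motor neurons that received a lentivirus for knockdown of the microRNA miR-218 (KD, 2 libraries) were compared with the same kind of culture given an empty lentivirus (control, 2 libraries). The comparison took the 4 libraries by their titles, out of 7 libraries in the study, and all 23366 genes of the count table, of which 12134 passed a filter on low counts and were tested. The 3 remaining libraries came from cultures with a virus for overexpression of miR-218 (OE), and they entered here only where a KD value had to be set against another virus. The cells in every group were from C57BL/6 embryos at embryonic stage E13.5 by their labels, though the protocol text also names a rat stage. They were purified from dissociated spinal cord over a density gradient and kept in medium with CNTF and GDNF, which are survival factors for these neurons. Fluorodeoxyuridine, a nucleoside analogue that stops dividing cells by blocking thymidylate synthesis, was added to all cultures to hold back glia. The labels do not say which promoter drove each virus, how long the viruses acted or what sequence the knockdown virus encoded, nor do they say that replicates came from separate cultures. The p-values therefore speak of the spread among these libraries, which may be technical.

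Depth was 3081800 and 3329184 counts in the KD libraries, against 2099714 and 1591812 counts in the control libraries, so low genes were measured with less precision in controls. The correlation of log2 CPM across genes was 0.971 between the KD libraries and 0.95 between the control libraries. The motor neuron label rested on thin evidence in either group. Of 8 defining motor neuron markers, Mnx1, a transcription factor of these cells, and Slc18a3, the vesicular acetylcholine transporter, had 0 counts in all 4 libraries, and the summed level of the 8 was 41.5 and 33.7 CPM in KD, against 23.9 and 29.5 CPM in control. CPM are counts scaled to the library size after TMM scaling. The ribosomal protein genes Rpl26, Rpl30, Rpl34 and Rps27 also had 0 counts in these 4 libraries, so 0 counts need not mean absence. Chat, which makes acetylcholine, was at 5.31 and 7.63 CPM in the KD libraries, against 2.44 and 1.28 CPM in the control libraries, and its difference did not pass the test (adjusted p = 0.161).

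MicroRNAs are short RNAs that lead an Argonaute protein to messenger RNAs, mostly by pairing of bases 2 to 8, the seed, with sites in the 3' untranslated region (3' UTR), after which the messenger is repressed or degraded. MiR-218 is abundant in motor neurons and is made from introns of the genes Slit2 and Slit3, which encode axon guidance proteins. When a microRNA is lost, messengers with matches to its seed are usually the ones that rise. The seed and bases 11 to 18 of the mature miR-218-5p both mattered for the results, and each is in capitals in a line of its own (RefSeq, GRCm38.p6).
miR-218-5p, seed: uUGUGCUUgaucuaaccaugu
miR-218-5p, bases 11 to 18: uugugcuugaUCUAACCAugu

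The genes that fell in KD shared bases of the second stretch, in the same sense as in the microRNA and not as its complement. Windows of 30 bases from the 3' UTRs of 8 genes that fell are given on mouse build mm9, with the run identical to miR-218-5p in capitals. The set was picked after values were seen, to show runs of 8, 7 and 6 bases. TCTAACCA is the run of bases 11 to 18, TCTAACC that of bases 11 to 17, CTAACCA that of bases 12 to 18, and CTAACC, the core, that of bases 12 to 17.
Cfl1 (chr19:5493826-5493855, plus strand): tgctgccaactTCTAACCAcaatagtgact
Rab5c (chr11:100577284-100577313, minus strand): ctggaatctacTCTAACCAatcgcacttaa
Polr2g (chr19:8867679-8867708, minus strand): ttattctgtgcTCTAACCAtaaacatgttg
Gnao1 (chr8:96492016-96492045, plus strand): ccaagcccctgTCTAACCtacgaccccaga
Cacna2d1 (chr5:15879660-15879689, plus strand): aaggcatagagTCTAACCtagcgagacaca
Mapt (chr11:104190483-104190512, plus strand): gggactttagggCTAACCAgatctttgtaa
Enc1 (chr13:98021956-98021985, plus strand): agtgcttgtttcCTAACCgtgcagtggtag
Rad23b (chr4:55402899-55402928, plus strand): cagtgcattacaCTAACCttgttcactgga

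The table counts the gene Mir218-1, the miR-218 copy within Slit2, and not the mature microRNA. Mir218-1 had 137 and 179 counts (42.8 and 52.5 CPM) in the KD libraries, against 107 and 81 counts (52.3 and 51.9 CPM) in the control libraries. The groups overlapped and the difference did not pass the test (log2 fold change -0.13 ± 0.19, SE; adjusted p = 0.727), and without KD replicate 1 it stood at 0.01. Mir218-2 had 0 counts in the 4 libraries. Slit2 was at 69.9 and 68.6 CPM in the KD libraries, against 50.3 and 65.3 CPM in the control libraries, and Slit3 at 8.12 and 17.01 CPM in the KD libraries, against 13.7 and 12.8 CPM in the control libraries, and neither passed (adjusted p = 0.416 for Slit2 and 0.934 for Slit3). Loss of the mature microRNA was therefore not measured in these files.

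Against control, 849 genes were higher in KD (7.0% of those tested) and 571 were lower (4.71%), at an adjusted p under 0.05 and a fold over 1.5 (edgeR quasi-likelihood test, Benjamini-Hochberg). The rises were also the larger ones. A change over 4-fold was called for 146 rises and 18 falls, and the median log2 fold change over all tested genes was 0.00. The count of rises depended on KD replicate 2, without which 486 genes were higher and 396 lower. The authors' deposited table called 769 of the tested genes higher and 533 lower in KD. Called in each of the 4 fits that left out a KD or control library were 310 rises and 224 falls. CPM of the KD and control libraries did not overlap for 53.3% of tested genes, so separation of the 4 values alone is common here.

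The 12 falls with the smallest p, among genes of at least 20 CPM on average, were Mapt, Gnao1, Cfl1, Enc1, Rad23b, Tug1, Slc22a17, Cacna2d1, Trp53inp2, Ptges3, Btbd1 and Mapre2. Gnao1, the G protein alpha subunit that is abundant in neurons, was at 237 and 191 CPM in the KD libraries, against 654 and 735 CPM in the control libraries, a log2 fold change of -1.70 ± 0.10 (SE; adjusted p = 2.5e-13). Cfl1, cofilin, which severs actin filaments, was at 253 and 234 CPM in the KD libraries, against 634 and 774 CPM in the control libraries (-1.53 ± 0.10; adjusted p = 4.64e-13). In both genes each KD library lay under each control library, and the OE libraries, at 571, 511 and 546 CPM for Gnao1 and 605, 623 and 625 CPM for Cfl1, lay well above KD. In bulk RNA, fewer cells of a type and less RNA per cell cannot be told apart.

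Enc1, an actin-binding protein of neurons, was at 529 and 472 CPM in the KD libraries, against 1292 and 1126 CPM in the control libraries (-1.27 ± 0.09; adjusted p = 2.05e-12). Rad23b, which brings ubiquitinated proteins to the proteasome and takes part in DNA repair, was at 250.0 and 230.2 CPM in the KD libraries, against 614 and 603 CPM in the control libraries (-1.34 ± 0.09; adjusted p = 2.32e-12). The noncoding RNA Tug1 was at 96.5 and 99.7 CPM in the KD libraries, against 286 and 342 CPM in the control libraries (-1.67 ± 0.12; adjusted p = 1.01e-11). For these 3 genes the groups were again apart, with a spread within each group that was small beside the gap. Trp53inp2, a protein of autophagy, fell by 1.76 on the log2 scale, the steepest of the 12, at 68.4 and 62.5 CPM in the KD libraries, against 212 and 231 CPM in the control libraries (adjusted p = 3.89e-11). Ptges3, a cochaperone of Hsp90, was at 401 and 475 CPM in the KD libraries, against 939 and 974 CPM in the control libraries (-1.13 ± 0.09; adjusted p = 4.23e-11). Mapre2, which binds growing microtubule ends, was at 107 and 114 CPM in the KD libraries, against 314 and 285 CPM in the control libraries (-1.44 ± 0.12; adjusted p = 1.18e-10). The calls of these 12 genes held in the 14 alternatives run.

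KD was also below OE in these genes. They were picked for low values in the same KD libraries, so this contrast is not a separate test. In the same fit, the KD over OE log2 difference was -1.34 for Rad23b (adjusted p = 5.47e-13), -1.54 for Cacna2d1 (adjusted p = 3.38e-12), -1.09 for Mapt (adjusted p = 3.37e-13) and -0.79 for Enc1 (adjusted p = 1.03e-08). Mapt, the microtubule-associated protein tau, was at 1982, 1935 and 1885 CPM in OE, against 891 and 924 CPM in KD and 2045 and 2130.0 CPM in control, so OE lay next to control. Over all tested genes 5.30% were called between KD and OE, 2.37% higher and 2.93% lower in KD.

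**Figure D1:**
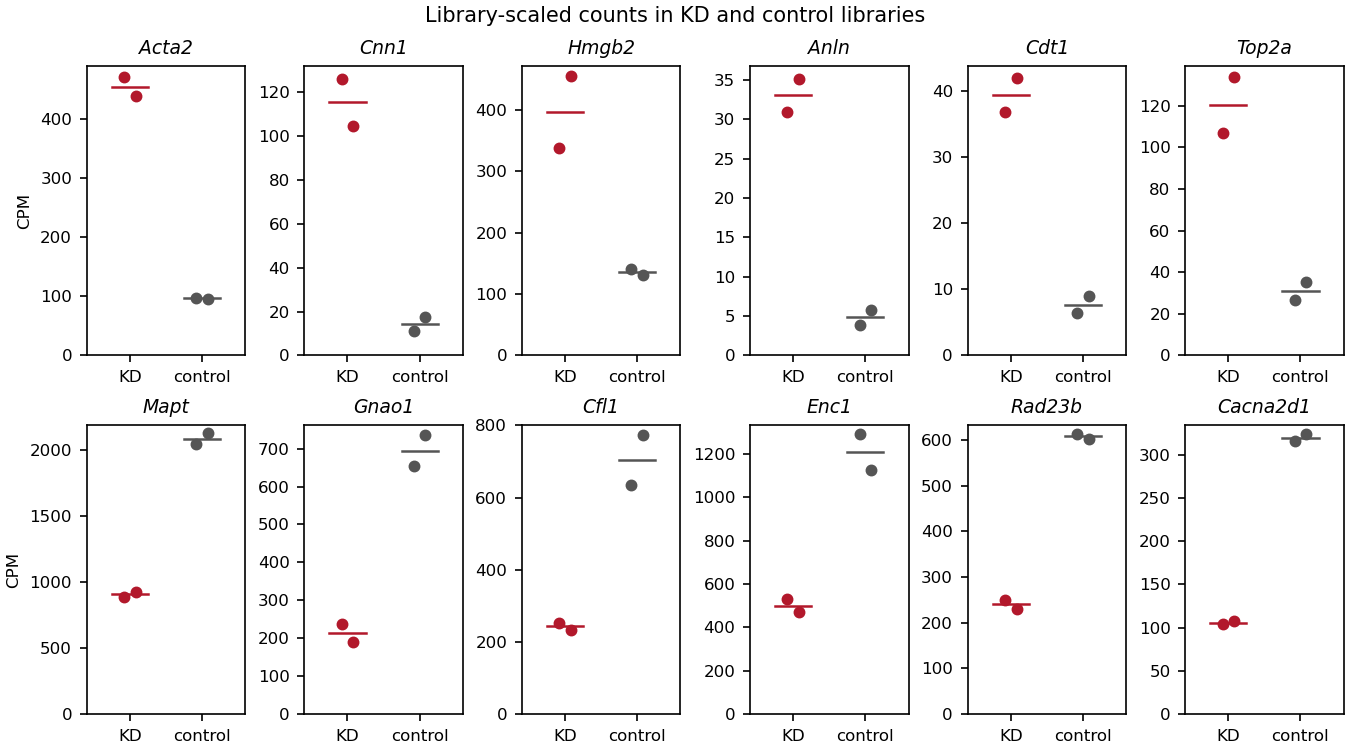
CPM (vertical axes, from 0) of 6 genes that were higher in KD (top) and 6 that were lower (bottom), with a point for each of the 2 KD and 2 control libraries and a line at each group's mean. In each panel the KD points lie on one side of the control points, as for Cfl1 at 253 and 234 CPM in KD and 634 and 774 CPM in control.

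Of the 571 falls, 538 had an annotated 3' UTR (4.83% of the 11133 tested genes that had one), and 302 of these (56.1%) held CTAACC in it. The word was in 20.6% of those 11133 genes and in 12.3% of the 802 rises among them (7.20% of the 11133). Among the 12 falls with the smallest p, 11 had a 3' UTR and 10 of them held CTAACC, the exception being Btbd1. The word was noticed after the values had been seen, and its share is a description of the called genes, with no test.

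The share of genes that fell followed the length of the run held in the 3' UTR. Of genes with TCTAACCA, 47 of 278 fell (16.9%), as did 83 of 521 with TCTAACC (15.9%), 79 of 497 with CTAACCA (15.9%) and 93 of 993 with CTAACC alone (9.37%). Of 8844 genes with none of these, 236 fell (2.67%). Rises made up 2.16% of genes with TCTAACCA, 4.13% to 5.43% of those with a shorter run and 7.95% of genes with none.

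The same order was seen in all genes of a class and not just in called ones. The median log2 fold change of KD over control was -0.23 with TCTAACCA, -0.21 with TCTAACC, -0.20 with CTAACCA, -0.09 with CTAACC alone and 0.04 with none. KD replicate 1 and KD replicate 2, each set against the control mean, gave medians of -0.23 and -0.21 with TCTAACCA and of 0.06 and 0.05 with none. Against the OE libraries, in a contrast that has the same 2 KD libraries, the KD medians were -0.20, -0.18, -0.18, -0.09 and 0.04 in the same order of classes. OE over control gave -0.03, -0.04, -0.04, -0.01 and 0.01, and control replicate 1 minus replicate 2 gave 0.02 with TCTAACCA.

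**Figure D2:**
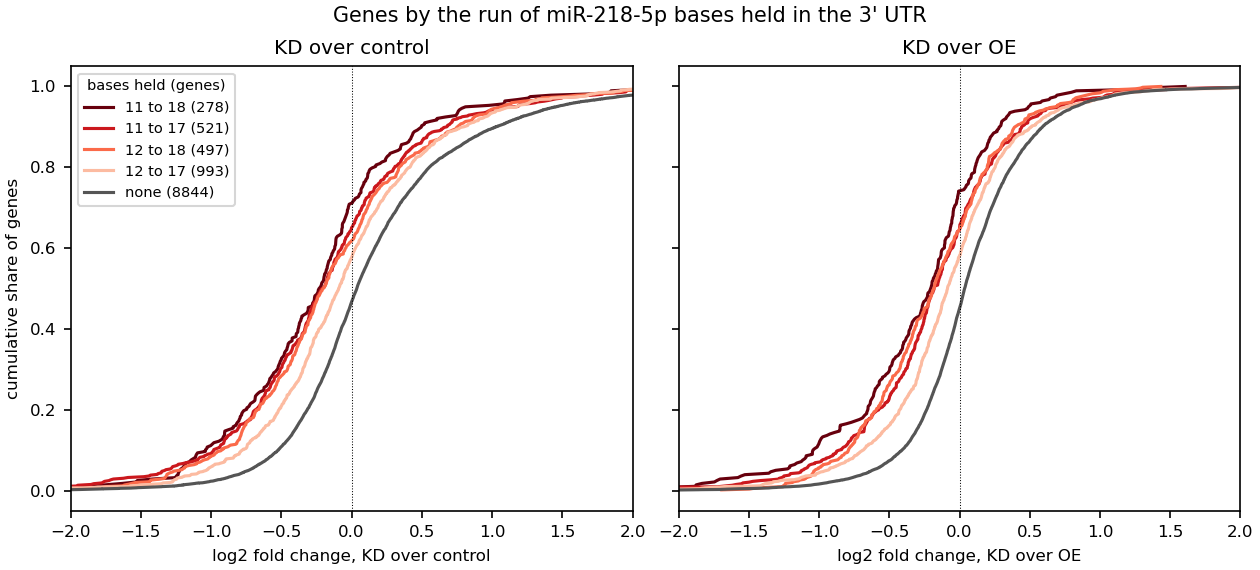
Cumulative share of genes (vertical axis) against log2 fold change of KD over control (left) and KD over OE (right), with a curve for each run of miR-218-5p bases held in the 3' UTR and the number of genes in brackets. The curves of genes with the run lie left of the curve of the 8844 genes with none, and the curve for bases 11 to 18 lies farthest left over most of its length.

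**Figure D3:**
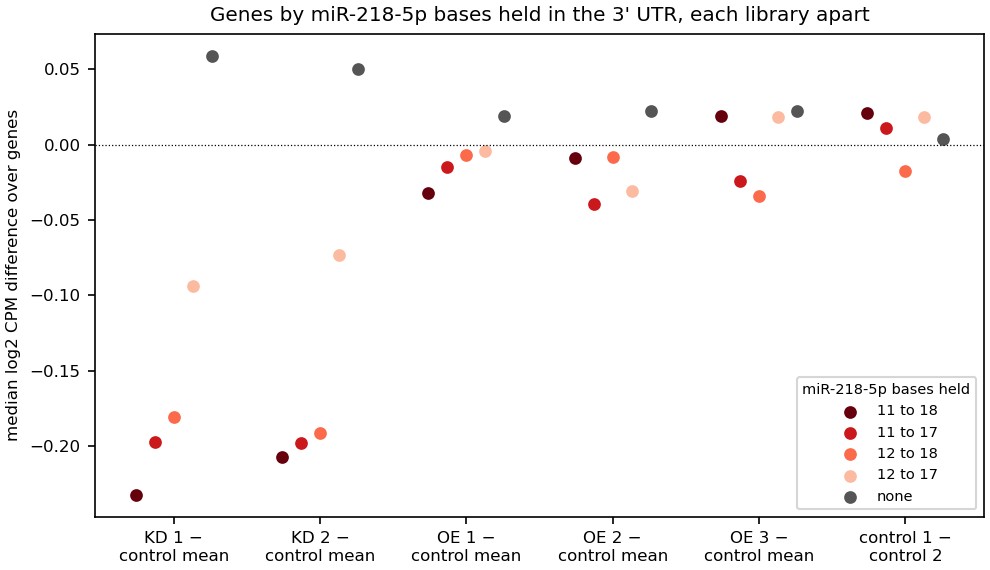
Median log2 CPM difference over the genes of each class (vertical axis) for each KD and OE library against the control mean, and for control replicate 1 against control replicate 2. With bases 11 to 18 held, the medians were -0.23 and -0.21 in the KD libraries, and those of the 3 OE libraries lay between -0.03 and 0.02.

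Genes with more copies of the core had lower values. With 1 CTAACC in the 3' UTR, 216 of 1818 genes fell (11.9%) and the median log2 fold change was -0.13. With 2 copies 63 of 382 fell (16.5%; median -0.24), and with 3 or more 23 of 89 fell (25.8%; median -0.40). Zbtb4, a zinc finger protein that binds methylated DNA, held 4 copies and was at 64.9 and 56.6 CPM in the KD libraries, against 142 and 175 CPM in the control libraries (-1.38 ± 0.15; adjusted p = 5.69e-08). Dnm3, a dynamin of synapses, held 3 and was at 51.5 and 44.00 CPM in the KD libraries, against 187 and 172 CPM in the control libraries (-1.91 ± 0.16; adjusted p = 1.18e-10). Each KD library was below each control library in both genes.

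Long 3' UTRs hold more words of any kind, so the share was also taken by length. Among genes with 3' UTRs of 2 to 592 bases, 20.3% of genes with CTAACC fell, against 1.58% of genes without it. At 593 to 1304 bases the shares were 14.7% with and 2.83% without it, at 1305 to 2361 bases 12.1% and 3.54%, and from 2362 bases on 12.6% and 3.06%. Cfl1 and Polr2g are short examples. Polr2g, a subunit of RNA polymerase II, has a 3' UTR of 262 bases with 1 run of 8, and was at 25.3 and 24.6 CPM in the KD libraries, against 70.9 and 73.04 CPM in the control libraries (-1.52 ± 0.21; adjusted p = 2.13e-06). Rab5c, a small GTPase of early endosomes, was at 125 and 134 CPM in the KD libraries, against 300.1 and 306 CPM in the control libraries (-1.23 ± 0.11; adjusted p = 8.49e-10), while OE was at 293, 309.9 and 294 CPM.

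The coding sequence was searched too, and its difference from the 3' UTR was not tested. Of 140 genes with TCTAACCA in the coding sequence 8.57% fell, with a median log2 fold change of -0.15, and of 9634 genes with no run there 4.60% fell. When the shortest annotated 3' UTR of each gene was used in place of the longest, 190 of 538 falls held CTAACC (35.3%), against 12.1% of all genes.

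The runs were then set among words in general, with each word counted in every gene that held it. Among all 16384 words, those with the largest excess of their share in falls over their share in all genes were CTAACCA (25.7% of falls, 7.47% of all) and TCTAACC (24.2% and 7.18%), and the next, TTTCCTT, is common in 3' UTRs (46.3% and 31.2%). By the ratio of the 2 shares, among 15782 words in at least 100 genes, 7 of the 10 highest held CTAACC. The small RNA that the knockdown virus makes is not given in the sources used here, and whether it or anything else bears on the shared word was not tested.

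**Figure D4:**
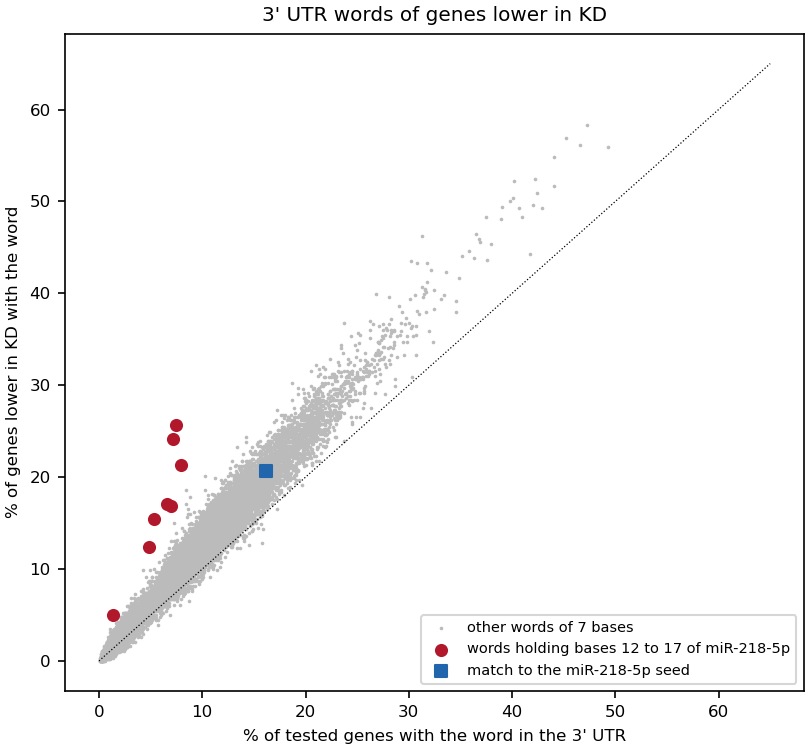
Share of genes lower in KD that hold a word in the 3' UTR (vertical axis, %) against the share of all tested genes that hold it (horizontal axis, %), with 1 point for each of the 16384 words of 7 bases. The dotted line marks equal shares. Words holding bases 12 to 17 of miR-218-5p lie above the cloud, up to 25.7% of falls at 7.47% of all genes, and the word that pairs with the seed lies within it.

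Genes with sites for the miR-218 seed lay close to all genes in their median. Of 527 genes with the 8-base site AAGCACAA, 32 were higher in KD (6.07%) and 33 lower (6.26%), against 7.20% and 4.83% of all genes with a 3' UTR. Their median log2 fold change was 0.00 to 2 decimals for KD over control, 0.16 for KD over OE and -0.17 for OE over control. Several seed-site genes that rose are shown for their sites, in capitals.
Cep55 (chr19:38148515-38148544, plus strand): ttaactgttctAAGCACAAagcaggttttg
Itpripl1 (chr2:126965816-126965845, minus strand): gactggtttgaAAGCACAAccaagatgttt
Prrg3 (chrX:69216351-69216380, plus strand): tttcaaaatgaAAGCACAAgagaaagagtg
Prrg3, a membrane protein with a Gla domain, was at 68.98 and 62.2 CPM in the KD libraries, against 13.7 and 19.9 CPM in the control libraries (1.99 ± 0.31; adjusted p = 2.11e-05). In OE it was at 5.78, 6.64 and 13.9 CPM, which overlapped control, and OE over control did not pass (-0.90, adjusted p = 0.114). KD over OE was 2.89 (adjusted p = 2.7e-09). Cep55, which acts in the last step of cell division, was at 17.8 and 26.7 CPM in the KD libraries, against 5.38 and 6.41 CPM in the control libraries (1.92 ± 0.40; adjusted p = 0.000826). Among seed-site genes that fell, Mef2c, a transcription factor of neurons and muscle, was at 26.8 and 21.7 CPM in the KD libraries, against 65.98 and 64.7 CPM in the control libraries (-1.43 ± 0.22; adjusted p = 1.93e-05). Sv2a, a glycoprotein of synaptic vesicles, was at 11.9 and 12.3 CPM in the KD libraries, against 38.6 and 33.96 CPM in the control libraries (-1.59 ± 0.29; adjusted p = 0.000168). Mef2c and Sv2a each also hold 2 copies of CTAACC.

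Of 21 tested genes that had been published as miR-218 targets, 4 were higher, 3 lower and 14 not called, or 19.1% and 14.3% of the list, against 7.0% higher and 4.71% lower over all tested genes (2 higher and 1 lower without KD replicate 2), with a median of 0.01. Gja1, connexin 43 of astrocytes, was at 146 and 181 CPM in the KD libraries, against 55.7 and 48.7 CPM in the control libraries (1.64 ± 0.17; adjusted p = 1.95e-08). Slc1a2, the glial glutamate transporter GLT-1, went the other way in KD, at 229.7 and 240.2 CPM in the KD libraries, against 464 and 487 CPM in the control libraries (-1.02 ± 0.11; adjusted p = 3.62e-08). OE was also low, at 209, 166 and 177 CPM. Slc1a2 holds 1 CTAACC. Over the list of published targets 1 of the 3 falls, 2 of the 4 rises and 10 of the 21 members held the word.

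The 12 rises with the smallest p, by the same rule, were Acta2, Igfbpl1, Tcf4, Cnn1, Hmgb2, Sparc, Tuba1c, Igfbp2, Cald1, Msn, Myl12a and Tagln. Acta2, smooth muscle actin, was at 469.8 and 438 CPM in the KD libraries, against 97.8 and 96.1 CPM in the control libraries (2.23 ± 0.14; adjusted p = 2.68e-13). Cnn1, calponin 1, which binds actin in smooth muscle, was at 126 and 105 CPM in the KD libraries, against 11.2 and 17.3 CPM in the control libraries (3.04 ± 0.25; adjusted p = 1.18e-10). Tuba1c, an alpha tubulin, was at 205 and 194 CPM in the KD libraries, against 51.8 and 45.5 CPM in the control libraries (2.03 ± 0.17; adjusted p = 2.78e-10), and near-identical tubulin genes make its counts uncertain. In these 3 genes the KD libraries were several times above control. OE lay between, at 184, 248 and 261 CPM for Acta2 and 92.5, 119.5 and 135 CPM for Tuba1c, and KD over OE passed the test for both (0.98 and 0.79 on the log2 scale; adjusted p = 8.87e-08 and 0.000126).

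Tcf4, a basic helix-loop-helix factor of neural development, was at 652 and 650.0 CPM in the KD libraries, against 300.1 and 286 CPM in the control libraries (1.15 ± 0.09; adjusted p = 1.18e-10). Igfbpl1, a secreted protein related to the IGF-binding proteins and made by young neurons and progenitors, was at 264 and 319.7 CPM in the KD libraries, against 84.1 and 91.6 CPM in the control libraries (1.74 ± 0.14; adjusted p = 7.89e-11). OE was closer to control than to KD in both, at 362, 363 and 339 CPM for Tcf4 and 119, 134 and 130.5 CPM for Igfbpl1 (KD over OE adjusted p = 1.95e-09 and 3.46e-09). Igfbpl1, though it rose, holds 1 CTAACC. Sparc, a secreted matrix protein, was at 1513 and 1810.0 CPM in the KD libraries, against 877 and 744 CPM in the control libraries (1.03 ± 0.09; adjusted p = 2.78e-10). OE was at 1620.0, 1699 and 1828 CPM. Msn, moesin, which ties actin to the membrane, was at 426 and 453 CPM in the KD libraries, against 213 and 164 CPM in the control libraries (1.21 ± 0.11; adjusted p = 1.57e-09). OE was at 399, 439.9 and 467 CPM. KD and OE overlapped for Sparc and Msn, with KD over OE differences of -0.05 and 0.01 that did not pass (adjusted p = 0.812 and 0.964).

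Genes of cell division made up the list with the most rises. Of 64 tested genes of mitosis and cytokinesis 48 were higher in KD (75.0%, where 7.0% of all tested genes were) and 0 lower, with a median log2 fold change of 1.44 and all 64 above 0. Over the 14 alternatives 33 to 48 were called. Anln, anillin of the cleavage furrow, was at 30.9 and 35.2 CPM in the KD libraries, against 3.91 and 5.77 CPM in the control libraries (2.79 ± 0.37; adjusted p = 1.39e-06). Top2a, the topoisomerase that untangles chromosomes, was at 107 and 134 CPM in the KD libraries, against 26.9 and 35.2 CPM in the control libraries (1.97 ± 0.22; adjusted p = 5.69e-08). Hmmr, which acts at the spindle, was at 21.9 and 16.1 CPM in the KD libraries, against 2.93 and 2.56 CPM in the control libraries (2.76 ± 0.52; adjusted p = 0.000288), and Hmgb2, a chromatin protein of dividing cells, at 338 and 455 CPM in the KD libraries, against 140.3 and 131 CPM in the control libraries (1.54 ± 0.13; adjusted p = 2.2e-10). Both KD libraries were above both controls in each of these genes, and OE was between for Anln, at 20.1, 19.9 and 20.1 CPM (KD over OE adjusted p = 0.0673). Hmgb2, though it rose, holds 1 CTAACC.

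Promoters of mitotic genes carry a short element, CHR, read by the DREAM and MuvB complexes, often beside CCAAT boxes. The promoter of Top2a, which had the smallest p among list members whose promoter holds both, is shown on GRCm38.p6 at chr11:99024140-99024439, minus strand, from 250 bases before to 50 after the start site. Capitals mark CHR words, which were TTTGAA read on either strand and the variant TTCGAA, and the CCAAT box, also read on either strand.
Top2a promoter: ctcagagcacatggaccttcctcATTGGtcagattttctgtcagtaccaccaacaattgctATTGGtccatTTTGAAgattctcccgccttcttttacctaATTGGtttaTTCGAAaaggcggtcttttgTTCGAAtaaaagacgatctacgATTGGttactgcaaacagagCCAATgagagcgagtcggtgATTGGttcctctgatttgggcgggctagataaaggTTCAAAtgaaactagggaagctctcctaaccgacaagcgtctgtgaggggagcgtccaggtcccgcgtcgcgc
A CHR word was in 29 of 37 such promoters of mitosis genes that rose (78.4%) and in 10 of 14 of those not called (71.4%), against 13.0% of 9036 promoters of tested genes and 19.4% of all 27025. CCAAT was in 27 of the 37 (73.0%) and 39.0% of tested genes. The shares were thus high over the list, in called and uncalled members.

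Of 40 tested genes of DNA replication and nucleotide synthesis 19 were higher (47.5%, against 7.0% of all tested genes) and 0 lower (median 1.00). The list's median was 0.56 for OE over control and 0.46 for KD over OE. Cdt1, which loads the replicative helicase, was at 36.8 and 41.9 CPM in the KD libraries, against 6.35 and 8.97 CPM in the control libraries (2.38 ± 0.36; adjusted p = 1.11e-05). Mcm3, a subunit of that helicase, was at 50.6 and 54.6 CPM in the KD libraries, against 15.6 and 14.1 CPM in the control libraries (1.81 ± 0.27; adjusted p = 1.08e-05). Rrm2, which supplies deoxynucleotides, was at 188 and 192 CPM in the KD libraries, against 77.7 and 51.2 CPM in the control libraries (1.54 ± 0.17; adjusted p = 3.09e-08). KD and control did not overlap in these 3 genes.

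A list of p53 targets and cell death genes had 28 tested members, p53 being the factor that answers DNA damage. Of these 13 were higher (46.4%, against 7.0% of all tested genes), 15 not called and 0 lower (median 0.61). Eda2r, a receptor of the tumour necrosis factor family, was at 51.5 and 56.6 CPM in the KD libraries, against 11.2 and 14.7 CPM in the control libraries (2.07 ± 0.27; adjusted p = 8.19e-07). Btg2, an antiproliferative protein, was at 88.02 and 88.9 CPM in the KD libraries, against 24.9 and 25.6 CPM in the control libraries (1.81 ± 0.22; adjusted p = 2.04e-07). Bax, which opens the mitochondrial outer membrane in apoptosis, was at 434 and 452 CPM in the KD libraries, against 240.0 and 196 CPM in the control libraries (1.02 ± 0.11; adjusted p = 3.82e-08). Cdkn1a, the cell cycle inhibitor p21, was at 40.6 and 51.6 CPM in the KD libraries, against 39.6 and 24.4 CPM in the control libraries and did not pass (adjusted p = 0.18). OE was near KD for Eda2r, at 48.96, 44.7 and 45.7 CPM (KD over OE 0.22, adjusted p = 0.588), and lay between for Btg2, at 51.4, 63.6 and 52.5 CPM (0.67, adjusted p = 0.0081).

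The actomyosin list of smooth muscle type had 16 of 34 members higher (47.1%, against 7.0% of all tested genes) and 0 lower (median 0.66). Beside Acta2 and Cnn1, Tagln, transgelin, was at 200.1 and 195 CPM in the KD libraries, against 58.6 and 57.7 CPM in the control libraries (1.76 ± 0.17; adjusted p = 4.49e-09). Myl9, a myosin light chain, was at 58.4 and 55.4 CPM in the KD libraries, against 14.2 and 10.2 CPM in the control libraries (2.19 ± 0.30; adjusted p = 1.89e-06). Flna, filamin A, which crosslinks actin, was at 556 and 497 CPM in the KD libraries, against 254 and 248 CPM in the control libraries (1.07 ± 0.11; adjusted p = 1.04e-08). Cald1, caldesmon, was at 226 and 248 CPM in the KD libraries, against 71.4 and 89.7 CPM in the control libraries (1.57 ± 0.14; adjusted p = 5.76e-10). The 2 groups were apart in each. Of 7 markers of pericytes, smooth muscle and endothelium, 1 was tested, Acta2 itself. The summed level of the 7 was 472 and 444 CPM in KD, against 98.7 and 99.3 CPM in control, but Myh11, Pdgfrb, Rgs5, Pecam1, Cdh5 and Cldn5 had at most 5 counts in any of the 4 libraries. In the longer list of pericyte and endothelial genes 2 of 3 tested members were higher and 0 lower (median 1.10). Cd34, a surface protein of endothelial and progenitor cells, had 27 and 59 counts in KD, against 0 and 2 counts in control (adjusted p = 0.000618), a ratio per total count of 24.8 with a 95% interval of 6.65 to 208 for counting error. Notch3, a receptor of mural cells, was at 50.9 and 66.9 CPM in the KD libraries, against 27.4 and 27.6 CPM in the control libraries (1.10 ± 0.24; adjusted p = 0.00153, 0.0556 without KD replicate 2).

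Of 19 genes of Yap, Tead and the secreted CCN proteins 10 were higher (52.6%, against 7.0% of all tested genes) and 0 lower (median 1.06). Fewer were called in each fit that left out a KD or control library, fewest without KD replicate 2. Wwtr1, the coactivator Taz, was at 44.6 and 51.6 CPM in the KD libraries, against 17.6 and 17.9 CPM in the control libraries (1.44 ± 0.26; adjusted p = 0.000147). Wisp1, a CCN protein, was at 58.1 and 56.3 CPM in the KD libraries, against 20.5 and 21.1 CPM in the control libraries (1.46 ± 0.24; adjusted p = 3.41e-05). Cyr61, another CCN protein, was at 277 and 327 CPM in the KD libraries, against 158 and 152 CPM in the control libraries (0.96 ± 0.13; adjusted p = 1.24e-06). OE overlapped KD for Wisp1, at 54.4, 61.8 and 70.4 CPM (KD over OE -0.12, adjusted p = 0.78).

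Matrix and integrin genes had 10 of 41 members higher (24.4%, against 7.0% of all tested genes) and 0 lower (median 0.40). Lama5, a laminin chain, was at 44.6 and 29.04 CPM in the KD libraries, against 7.82 and 5.12 CPM in the control libraries (2.47 ± 0.39; adjusted p = 2.46e-05), and the collagens Col8a1 and Col5a2 were at 141 and 121 CPM and 103 and 116 CPM in KD, against 63.5 and 42.9 CPM and 53.8 and 38.4 CPM in control (1.28 ± 0.18 and 1.23 ± 0.19; adjusted p = 3.58e-06 and 1.49e-05). Col8a1 was at 147, 177 and 199 CPM in OE, at or above KD. Of 11 tested fibroblast and meningeal genes 2 were higher (18.2%), 0 lower and 8 above 0 (median 0.41). Fewer were higher without KD replicate 1, KD replicate 2 or control replicate 2. Fn1, fibronectin, was at 168 and 200.0 CPM in the KD libraries, against 98.2 and 89.7 CPM in the control libraries (0.97 ± 0.16; adjusted p = 4.73e-05). Igfbp4, which binds insulin-like growth factors, was at 14.1 and 14.1 CPM in the KD libraries, against 4.40 and 3.20 CPM in the control libraries (adjusted p = 0.0121, 0.0659 without KD replicate 1, 0.075 without KD replicate 2 and 0.0737 without control replicate 2). Of the defining markers, Col1a1, Col1a2 and Dcn did not pass, and the 4 markers of that type summed to 74.6 and 73.0 CPM in KD, against 60.6 and 56.4 CPM in control.

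Of 21 tested astrocyte and radial glia genes 10 were higher (47.6%) and 1 lower (4.76%), with a median of 0.53. The list's median was 0.62 for OE over control and 0.14 for KD over OE. Over all tested genes 7.0% were higher and 4.71% lower. The rises included genes of radial glia and progenitors. Pax6, a transcription factor of progenitors, was at 24.7 and 20.5 CPM in the KD libraries, against 4.40 and 8.33 CPM in the control libraries (1.86 ± 0.40; adjusted p = 0.00104). Nes, the intermediate filament nestin, was at 131 and 121 CPM in the KD libraries, against 49.4 and 41.00 CPM in the control libraries (1.47 ± 0.17; adjusted p = 1.85e-07). Hopx, a homeodomain protein of radial glia, was at 215 and 194 CPM in the KD libraries, against 59.1 and 82.7 CPM in the control libraries (1.55 ± 0.16; adjusted p = 1.04e-08). Vim, vimentin, was at 1442 and 1777 CPM in the KD libraries, against 1012 and 853 CPM in the control libraries (0.79 ± 0.09; adjusted p = 1.41e-07). The defining astrocyte markers were mixed: Gfap, Aqp4 and Slc1a3 did not pass the test, Slc1a2 was the member that fell, and the 5 defining markers summed to 389 and 400 CPM in KD, against 600 and 639 CPM in control. Without Slc1a2 the other 4 summed to 159 and 160 CPM in KD, against 135 and 153 CPM in control. All 23 list members counted, tested or not, summed to 4651 and 5373 CPM in KD, against 3566 and 3198 CPM in control. Aldh1l1, another of the 5, was called higher, at 28.1 and 26.4 CPM in KD, against 16.6 and 7.05 CPM in control (adjusted p = 0.0221), but not without control replicate 2 (adjusted p = 0.251) or without KD replicate 1 or 2 (adjusted p = 0.102 and 0.0764). The part that a shift among cell types has in the glial, matrix and division genes was not tested.

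**Figure D5:**
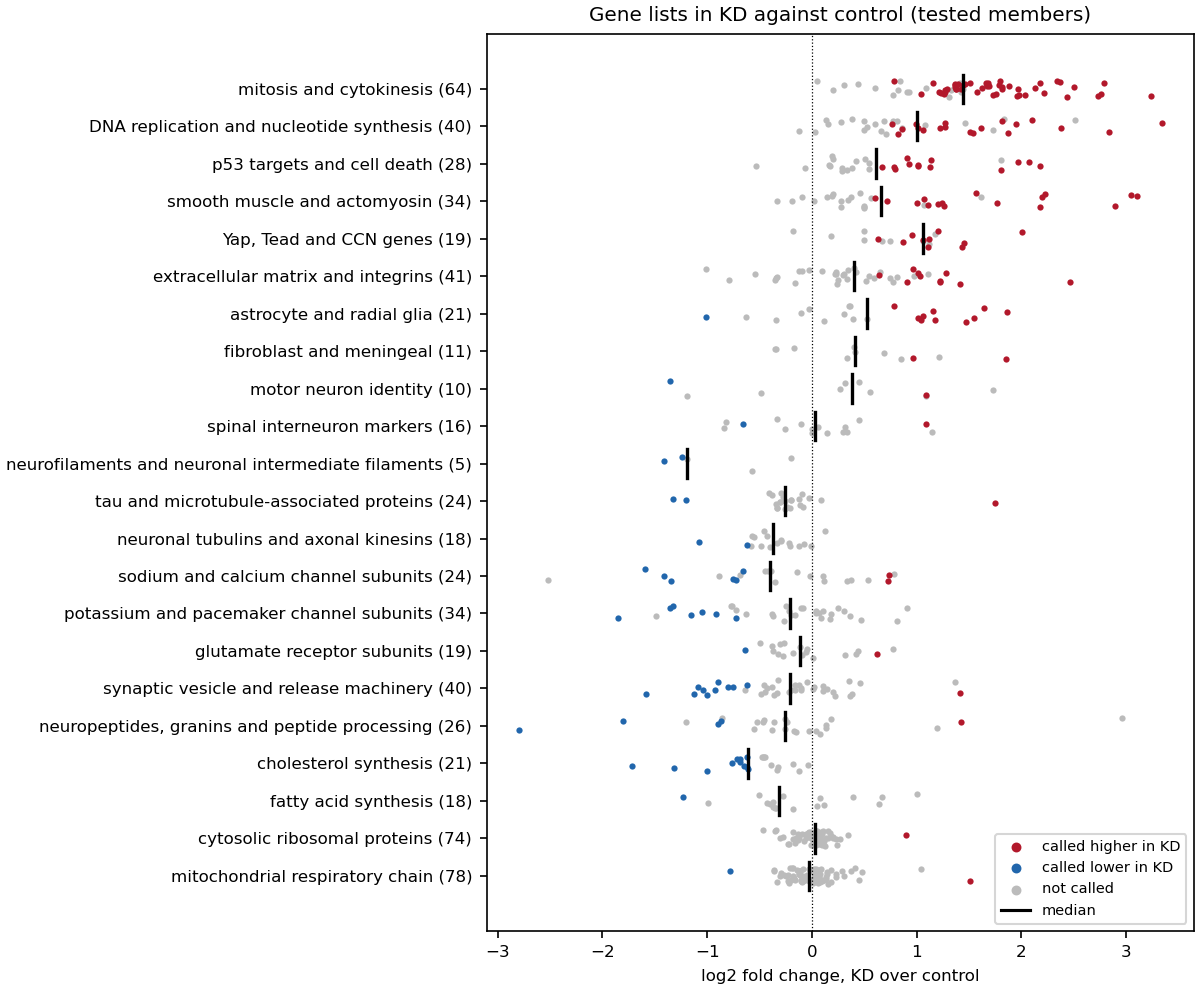
Log2 fold change of KD over control (horizontal axis) for the tested members of 22 gene lists, with a point for each gene, red where higher and blue where lower in KD, a black bar at the median, and the number of tested members in brackets. The median of mitosis genes lies at 1.44 and that of cholesterol synthesis at -0.61, while those of ribosomal proteins and the respiratory chain lie at 0.03 and -0.03.

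Of 21 cholesterol synthesis genes 11 were lower, 10 not called and 0 higher, with all 21 below 0 (median -0.61; 4.71% of all tested genes fell). Sc5d, the desaturase near the end of the pathway, was at 35.3 and 28.2 CPM in the KD libraries, against 78.2 and 80.1 CPM in the control libraries (-1.32 ± 0.21; adjusted p = 1.83e-05). Fdps, which makes farnesyl diphosphate, was at 50.6 and 56.02 CPM in the KD libraries, against 108 and 106 CPM in the control libraries (-1.004 ± 0.17; adjusted p = 8.97e-05), and Cyp51, a sterol demethylase, at 282 and 262 CPM in the KD libraries, against 431 and 493 CPM in the control libraries (-0.76 ± 0.11; adjusted p = 6.27e-06). The KD libraries were below control in each of the 3. OE was between for Cyp51, at 381, 332 and 295 CPM (KD over OE -0.30, adjusted p = 0.0556). Of the 11 falls 4 held CTAACC, Sc5d among them and not Fdps or Cyp51. Hmgcs1 had 0 counts in the 4 libraries, which here need not mean absence. Fatty acid synthesis had 1 fall among 18 members, a share near that of all genes (5.56% and 4.71%; 2 fell without control replicate 2), with 11 below 0 and a median of -0.31. The fall was the desaturase Fads1, at 158 and 161 CPM in the KD libraries, against 363 and 388 CPM in the control libraries (-1.23 ± 0.11; adjusted p = 4.64e-10), with 2 copies of CTAACC.

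Genes of the neuronal cytoskeleton lay mostly below 0, where 4.71% of all tested genes fell. Of 5 neurofilament and related genes 2 fell, Nefm and Nefl, and neither holds CTAACC. Nefm, the medium neurofilament chain, was at 142 and 156 CPM in the KD libraries, against 448 and 345 CPM in the control libraries (-1.42 ± 0.12; adjusted p = 4.52e-10). OE was at 512, 401 and 512 CPM. Of 24 microtubule-associated proteins 2 fell, Mapt and Dpysl5, and 1 rose (0 rose without KD replicate 1, KD replicate 2 or control replicate 2), though 22 of the 24 were below 0 (median -0.26). Dpysl5, a protein of growth cones, was at 38.4 and 37.2 CPM in the KD libraries, against 91.4 and 99.3 CPM in the control libraries (-1.33 ± 0.19; adjusted p = 4.15e-06) and holds 2 copies of CTAACC. Of 18 neuronal tubulins and axonal kinesins 2 fell, Tubb2b and Kif3c (4 without KD replicate 2 or control replicate 2), and 17 were below 0 (median -0.37). Tubb2b, at 4666 and 5339 CPM in the KD libraries, against 7856 and 7533 CPM in the control libraries (-0.62 ± 0.07; adjusted p = 1.29e-07), was under the fold threshold without KD replicate 1 (-0.53). Kif3c, a kinesin of axonal transport, was at 103 and 100.3 CPM in the KD libraries, against 200.4 and 229 CPM in the control libraries (-1.08 ± 0.14; adjusted p = 5.74e-07). Cntn1, contactin 1, an adhesion molecule of axons, was the 1 fall among 16 axon growth and initial segment genes (2 without KD replicate 1 or control replicate 1), at 129.8 and 173 CPM in the KD libraries, against 407 and 357 CPM in the control libraries (-1.33 ± 0.12; adjusted p = 1.55e-09). Among neuronal genes not called, Stmn2, stathmin 2, was at 1323 and 1287 CPM in the KD libraries, against 1374 and 1458 CPM in the control libraries (adjusted p = 0.331) and Gap43 at 1444 and 1652 CPM in the KD libraries, against 1822 and 1750.0 CPM in the control libraries (adjusted p = 0.107).

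Ion channel subunits that changed were mostly lower. Of 24 sodium and calcium channel subunits 6 fell and 2 rose (median -0.40), and 5 of the 6 falls held CTAACC, as did 8 of the 24 members. Cacna2d1 and Cacna2d2, the alpha2delta subunits that carry calcium channels to the membrane, were lower together. Cacna2d1 was at 104 and 108 CPM in the KD libraries, against 316 and 324 CPM in the control libraries (-1.59 ± 0.12; adjusted p = 1.01e-11), and Cacna2d2 at 29.03 and 26.7 CPM in the KD libraries, against 66.96 and 82.7 CPM in the control libraries (-1.42 ± 0.21; adjusted p = 6.89e-06), which holds the run of 8. Scn3b, a sodium channel beta subunit, rose and was at 146 and 144 CPM in the KD libraries, against 93.3 and 80.7 CPM in the control libraries (0.73 ± 0.15; adjusted p = 0.000721).

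Of 34 potassium and pacemaker channel subunits 7 fell (20.6%, against 4.71% of all tested genes) and 0 rose (median -0.21). Fewer fell in each fit that left out a KD or control library, fewest without control replicate 2. Pex5l, which encodes TRIP8b, a partner of pacemaker channels, was at 6.87 and 10.8 CPM in the KD libraries, against 22.5 and 42.9 CPM in the control libraries (-1.85 ± 0.37; adjusted p = 0.000492), with the 2 controls far apart, and OE was near KD, at 9.73, 10.8 and 11.1 CPM. Kcnd3, an A-type channel, was at 60.9 and 71.6 CPM in the KD libraries, against 114 and 136 CPM in the control libraries (-0.91 ± 0.17; adjusted p = 0.000245).

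Of 40 genes of synaptic vesicles and release 10 fell and 1 rose (median -0.21). In each fit that left out a KD or control library, 9 or 10 of the list fell. Over all tested genes 4.71% were lower and 7.0% higher. The list's median was -0.23 for OE over control and -0.01 for KD over OE, so its median shift was also seen with OE. The rise, Rph3a, which binds Rab3 on vesicles, was at 15.9 and 13.5 CPM in the KD libraries, against 6.84 and 3.84 CPM in the control libraries (adjusted p = 0.037) and was not called without KD replicate 1 (adjusted p = 0.18), KD replicate 2 (0.097) or control replicate 2 (0.211). Dnm1, dynamin 1 of vesicle endocytosis, was at 29.6 and 29.6 CPM in the KD libraries, against 57.7 and 64.7 CPM in the control libraries (-1.04 ± 0.22; adjusted p = 0.000932) and holds the run of 8. Rab3b, a vesicle GTPase, was at 77.1 and 81.2 CPM in the KD libraries, against 171 and 165 CPM in the control libraries (-1.08 ± 0.15; adjusted p = 2.13e-06), and Syt11, a synaptotagmin, at 309 and 276 CPM in the KD libraries, against 555 and 556 CPM in the control libraries (-0.92 ± 0.09; adjusted p = 9.42e-09), each with a run of 7. Erc1, an active zone protein, was at 29.6 and 29.9 CPM in the KD libraries, against 73.8 and 55.7 CPM in the control libraries (-1.13 ± 0.22; adjusted p = 0.000322) and holds none. Of the 9 falls with a 3' UTR 5 held CTAACC, against 14 of 39 members. Unc13a, which primes vesicles and is an ALS risk gene, was at 96.8 and 106 CPM in the KD libraries, against 165 and 190.3 CPM in the control libraries (-0.80 ± 0.14; adjusted p = 0.000123). OE was near KD, at 116, 105 and 106 CPM (KD over OE adjusted p = 0.724). Dnm1 and Erc1 were lower in KD than in OE (-0.86 and -0.87 on the log2 scale; adjusted p = 0.00363 and 0.00306). For Rab3b this difference did not pass (-0.40, adjusted p = 0.0629).

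Of 26 genes of neuropeptides, granins and peptide processing 4 were lower (15.4%, against 4.71% of all tested genes). The 1 that was higher made up 3.85%, under the 7.0% of all tested genes. More were lower without KD replicate 1 and fewer without KD replicate 2. Sst, somatostatin, was at 113 and 101 CPM in the KD libraries, against 196 and 202 CPM in the control libraries (-0.90 ± 0.13; adjusted p = 7.63e-06), while Penk, the enkephalin precursor, was at 83.3 and 76.5 CPM in the KD libraries, against 36.2 and 22.4 CPM in the control libraries (1.42 ± 0.23; adjusted p = 2.41e-05). Of 51 guidance genes (semaphorins, ephrins, netrins and receptors) 6 were lower (11.8%) and 2 higher (3.92%, under the 7.0% of all tested genes). Fewer were lower in each fit that left out a KD or control library, fewest without KD replicate 2. More were higher without control replicate 1 and fewer without control replicate 2. Sema5a, a transmembrane semaphorin with 2 copies of CTAACC, was at 9.36 and 12.03 CPM in the KD libraries, against 36.7 and 35.9 CPM in the control libraries (-1.75 ± 0.29; adjusted p = 3.41e-05). Srgap2, which binds Robo receptors and shapes membranes, was the fall among 9 Slit and Robo genes, at 104 and 112 CPM in the KD libraries, against 234 and 203 CPM in the control libraries (-1.02 ± 0.14; adjusted p = 4.08e-06), also with 2 copies. The 1 rise of that list was Robo3, a receptor of the Robo family, at 10.6 and 11.7 CPM in the KD libraries, against 1.47 and 4.49 CPM in the control libraries (adjusted p = 0.0219, 0.22 without control replicate 1, 0.0712 without KD replicate 1 and 0.118 without KD replicate 2). Groups were apart in each of these genes. The rise and the fall each made up 11.1% of the Slit and Robo list, against 7.0% and 4.71% of all tested genes.

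Of 10 tested motor neuron identity genes 1 rose and 1 fell, and neither call held without each library. Ret, the GDNF receptor, was at 21.5 and 22.9 CPM in the KD libraries, against 7.33 and 14.1 CPM in the control libraries (adjusted p = 0.0352, 0.348 without control replicate 1, 0.0966 without KD replicate 1 and 0.145 without KD replicate 2). Ret holds the run TCTAACCA in its 3' UTR. Esrrg, a nuclear receptor of gamma motor neurons, was at 14.7 and 6.16 CPM in the KD libraries, against 27.9 and 24.99 CPM in the control libraries (adjusted p = 0.0113, 0.0605 without control replicate 1 and 0.228 without KD replicate 2). Of 25 ALS genes 2 fell (8.0%, near the 4.71% of all genes; 4 without control replicate 2), Unc13a and Chchd10, a mitochondrial protein, the second at 80.8 and 53.97 CPM in the KD libraries, against 119 and 119 CPM in the control libraries (adjusted p = 0.000792, 0.0612 without KD replicate 2).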

How the data were processed

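Messenger RNA was sequenced as single reads of 50 bases, per the labels' protocols, which also name TopHat2 2.0.10 as the aligner, mm9 as the mouse build and HTSeq-count 0.6.1p1 as the counter of uniquely mapped reads. The deposited table holds raw counts per gene for each library, per the file headers, and these were analysed. The authors' deposited adjusted p-values and signed folds (a score in the table's own coding) came from DESeq2 1.4.5, per the labels' protocols, and were used only to set their calls beside those made here. Which annotation and strand setting the counter had is not stated there, so overlapping genes could not be told apart.

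Counts were tested across all genes with edgeR 4.0.16 (R 4.3.3), using TMM scaling, filterByExpr by group, and the robust quasi-likelihood F test in 1 fit of 7 libraries with group means, from which KD minus control and KD minus OE were taken. Calls needed a fold over 1.5 and p under 0.05 after Benjamini-Hochberg adjustment, and tests were two-sided. CPM, counts scaled to library size, are printed as levels. The fit was tested on simulated counts of 11948 genes, where it recovered 20%, 70%, 92% and 94% of genes changed 1.5-, 2-, 3- and 4-fold (50 each) and called 5 unchanged genes. Every simulated gene had the same biological spread, and changed genes were drawn only from those above a low mean CPM. Recovery of genes below that level, or with a larger spread, was not measured. Alternatives used DESeq2 1.42.0 and limma 3.58.1. Words were searched in the longest 3' UTR of each gene symbol (GENCODE vM1, mm9), which 91.8% of tested genes had.

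Named genes were the 12 rises and 12 falls of smallest p with at least 20 CPM on average over the 4 libraries, up to 4 called members a direction in each of 42 gene lists, the called genes of largest change with 8-base seed sites (8 higher and 6 lower), and miR-218 genes with their hosts. The report gives values for a part of these, and some named genes are not reported here. Other genes were picked after their values were seen: Top2a, Mcm3, Rrm2, Bax, Cdkn1a, Myl9, Flna, Cyr61, Vim, Stmn2, Gap43, Kcnd3, Syt11, the defining cell markers, and the genes shown for CTAACC. The gene lists, and the choice of this comparison, were made with earlier results of these data known.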

Additional observations from a re-analysis of the deposited data

How the results depend on the processing

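Over the 7 fits that left out a library, 486 to 833 genes were higher and 396 to 567 lower in KD, with the lowest counts without KD replicate 2; the cause was not tested, though each of these fits has fewer libraries. Other scalings gave 831 higher and 598 lower (median ratio) and 941 and 486 (upper quartile, which moved the median of all genes to 0.05), no filter on low counts 883 and 581, DESeq2 644 and 509, limma-voom 624 and 525, and the 4 KD and control libraries alone 812 and 531. Of 171 named called genes, 106 were called in each of the 14 alternatives. Mir218-1 and Slit3, neither called, changed sign, with log2 fold changes from -0.29 to 0.01 and from -0.71 to 0.355 when a library was left out. The share of falls with CTAACC in the 3' UTR was 52.2% to 59.6% over these settings and 35.3% with the shortest 3' UTR, a choice made after seeing the data. Replicate numbers did not pair the libraries: same-numbered KD and control libraries deviated from their group means with a correlation of -0.05. With a replicate block 838 genes were higher and 557 lower, and 1350 calls were shared with the fit without it. Control libraries of 1591812 and 2099714 counts limit what can be said of genes with few counts.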

Other observations

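Several smaller gene groups changed in part. Ngfr, the neurotrophin receptor p75, was at 3.12 and 4.69 CPM in KD, against 29.3 and 28.8 CPM in control (-2.88 ± 0.38 on the log2 scale, SE; edgeR adjusted p = 1.29e-06), with both KD libraries far under both controls, and OE lay between at 17.9, 15.4 and 20.7 CPM. Inhbb, a subunit of activins and inhibins, was at 19.98 and 35.5 CPM in KD, against 4.89 and 7.05 CPM in control. Its log2 fold change was 2.24 ± 0.42 (adjusted p = 0.000255). It was 1 of 5 rises among 29 genes of TGF-beta and BMP signalling (17.2%, against 7.0% of all tested genes). Fewer of that list were called in each fit that left out a KD or control library, fewest without control replicate 2. Igfbp2, which binds insulin-like growth factors, was at 762 and 644 CPM in KD, against 316 and 297 CPM in control (adjusted p = 5.76e-10). Dkk3, a secreted protein of the Dickkopf family, was at 35.9 and 36.7 CPM in KD, against 15.2 and 12.2 CPM in control (adjusted p = 0.000716), and OE overlapped KD for both, at 594, 767 and 691 CPM and 31.02, 37.4 and 36.4 CPM. Of 20 interferon-stimulated genes 5 were higher and 1 lower, with 1 higher without KD replicate 2 and 3 without KD replicate 1. Among the rises, H2-K1, a class I histocompatibility chain, was at 246 and 266 CPM in KD, against 162 and 144 CPM in control (adjusted p = 0.000188). Of 24 chemokine and acute-phase genes 2 were higher (8.33%) and 4 lower (16.7%), against 7.0% and 4.71% of all tested genes. Fewer were lower without KD replicate 1, KD replicate 2 or control replicate 2, and more without control replicate 1. Of 74 cytosolic ribosomal proteins 1 was called, Rps27l, at 315 and 374 CPM in KD, against 215 and 152 CPM in control (adjusted p = 4.13e-06), and the median of the 74 was 0.03.

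Among words in 3' UTRs of rises, GTGCCTT had the largest excess of its share in rises (21.4%) over its share in all genes (15.8%), while by the ratio of these shares (1.36) it ranked 164 among words in at least 100 genes. It is complementary to the seed of miR-124, a microRNA of neurons, and the word was chosen after the values were seen. Of 377 genes with the 8-base site GTGCCTTA 45 were higher (11.9%) and 10 lower, and their median log2 fold change was 0.19 for KD over control, 0.12 for OE over control and 0.09 for KD over OE, the first and second of which share the control libraries. Myh9, the heavy chain of nonmuscle myosin, holds the site and was at 126 and 129 CPM in KD, against 50.8 and 56.4 CPM in control (1.26 ± 0.17; adjusted p = 2.27e-06), and Amotl1, a junction protein of the angiomotin family, was at 97.7 and 90.05 CPM in KD, against 44.97 and 41.6 CPM in control (adjusted p = 0.000106). Amotl1 also holds 1 CTAACC. The activity of miR-124 was not measured in these files.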
